A study of Homo sapiens with 4 samples.

Results

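Cells make fatty acids in the cytosol from acetyl-CoA, and 7 of the 9 genes described here encode proteins that supply the carbon or NADPH, make malonyl-CoA or build palmitate, while MCAT and OLAH act beside that route. They were taken by name from a list drawn up with earlier results of these data known. They were SLC25A1, ACLY, ACSS2, ACACA, ACACB, FASN, ME1, MCAT and OLAH. All 9 were among the 28973 genes of the table, listed once each, and all 9 were kept by the filter on low counts that left 17449 genes for testing. The RNA came from TOV-112D, an established human ovarian cancer cell line from a commercial collection, grown in RPMI-1640 with 10% fetal bovine serum. By their titles and treatment labels, 2 libraries were from cells given palmitic acid (PA) and 2 from cells given bovine serum albumin (BSA), the protein that usually carries fatty acids in culture medium. The labels give 200 µM and 24 h for both groups. The description field calls the BSA libraries a negative control but names a knockdown of SPTLC2 for the PA libraries, and the treatment text shared by all 4 also mentions shCON and shZDHHC15 cells. Neither gene was lower in the libraries labelled PA. The BSA libraries held 1524 and 1080 counts of SPTLC2, and the PA libraries 2194 and 1740. For ZDHHC15 the BSA libraries held 291 and 225 counts, and the PA libraries 190083 and 167798. SPTLC2 did not pass the test used below, with a log2 fold change of 0.83 ± 0.28 (SE; edgeR adjusted p = 0.175). The counts go against the knockdown label, so every direction below is that of the libraries labelled PA. The log2 fold change of ZDHHC15 was 9.69 ± 0.45 (SE; edgeR adjusted p = 0.0544). Because this difference runs along the same groups, differences below cannot be told apart as tied to palmitic acid or to ZDHHC15.

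Citrate leaves mitochondria through the carrier SLC25A1, and ATP citrate lyase (ACLY) splits it into acetyl-CoA and oxaloacetate. ACSS2 makes acetyl-CoA from acetate instead. Acetyl-CoA carboxylase turns acetyl-CoA into malonyl-CoA, with ACACA as the cytosolic form and ACACB as the form at the mitochondrial surface, where malonyl-CoA restrains fatty acid oxidation. Fatty acid synthase (FASN) builds palmitate from these units with NADPH, part of which malic enzyme (ME1) provides. MCAT loads malonyl groups in the separate mitochondrial pathway. OLAH is a thioesterase known from mammary gland, where it releases medium-chain fatty acids from the synthase. SREBP transcription factors are known activators of many of these genes when sterols or unsaturated fatty acids are scarce.

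Total counts ran from 23722074 to 31695944 per library. The BSA libraries differed from each other more than the PA libraries did, with an SD over tested genes of the log2 ratio between replicates of 1.00 for BSA and 0.41 for PA, and the BSA difference followed GC content. The share of counts on mitochondrial genes was 1.88% for BSA replicate 2 and 3.7% to 4.56% for the other 3 libraries. Markers of epithelial and ovarian tumour cells were present in part. Their summed level was 1610 and 2010 CPM in BSA and 2600 and 2900 CPM in PA (CPM is the read count relative to the library size after TMM scaling). KRT8 stood at 936.2 and 1115 CPM in BSA and at 1584 and 1791 CPM in PA. MSLN (mesothelin) stood at 96.06 and 97.06 CPM in BSA and at 272.4 and 267.4 CPM in PA, and MUC16 (CA125) at 15.3 and 12.1 CPM against 43.74 and 41.06 CPM. PAX8 stood at 2.611 and 5.362 CPM in BSA and at 6.465 and 7.785 CPM in PA. KRT8, MSLN, MUC16 and PAX8 thus stood higher in PA as ACSS2 and FASN did, and their part in the results was not tested. KRT18 and ESR1 had overlapping groups, with log2 fold changes of 0.15 ± 0.27 and -0.39 ± 0.48 (SE). EPCAM, CDH1, KRT19 and WT1 stayed under 1 CPM in every library. The 9 listed leukocyte and endothelial markers summed to 4.18 and 7.9 CPM in BSA and to 6.84 and 5.57 CPM in PA, with CD3E, CD68, KDR, LYZ and PECAM1 under 1 CPM in every library. With bulk RNA, fewer cells expressing a gene and less RNA per cell cannot be told apart. Whether replicates were grown as separate cultures is not stated by the labels, so the p-values describe the spread of these 4 libraries, and that spread may be technical.

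Per length of gene, the members spanned more than 2 orders of magnitude. In the deposited FPKM (fragments relative to gene length and to library size), the order in BSA replicate 1 ran from SLC25A1 at 74.99 through ACLY at 50.98, FASN at 28.75, ACACA at 13.65, ME1 at 13.3, MCAT at 9.553 and ACSS2 at 6.144 to ACACB at 1.435 and OLAH at 0.2691. BSA replicate 2 had the same order at the top and at the bottom, but ME1 stood behind MCAT and ACSS2 there. In both PA libraries FASN led, ahead of SLC25A1 and ACLY, and ACSS2 stood in place 4, ahead of ACACA. MCAT and ME1, the next pair in the PA order, were not apart beyond their spread, at 7.8 ± 0.425 and 7.855 ± 0.268 FPKM (SD, n = 2). The FPKM of the 9 genes summed to 199.1 and 188.3 in BSA, and to 330 and 376.3 in PA, so the sum was higher in both PA libraries than in either BSA library. FASN made up 14.4% and 16.6% of that sum in BSA and 32% and 34.8% in PA, and ACSS2 made up 3.09% and 3.29% against 9.85% and 9.93%.

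**Figure D1:**
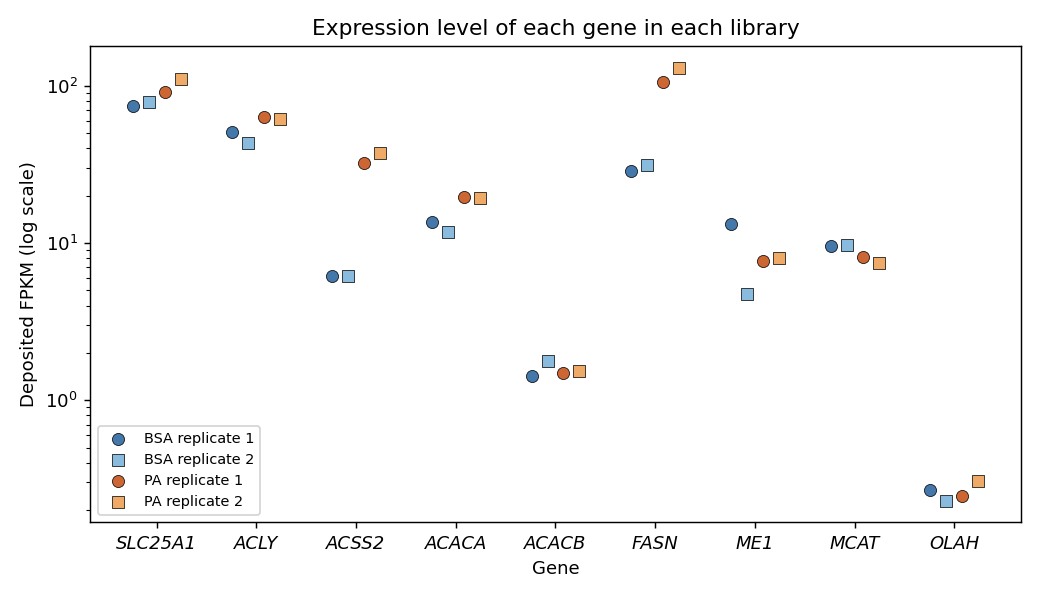
Deposited FPKM of each of the 9 genes in each library, on a log scale, with circles for replicate 1 and squares for replicate 2. The PA points of ACSS2 (32.52 and 37.38) and FASN (105.6 and 130.9) lie far above their BSA points, while those of ACACB, ME1 and OLAH overlap the BSA points.

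**Figure D2:**
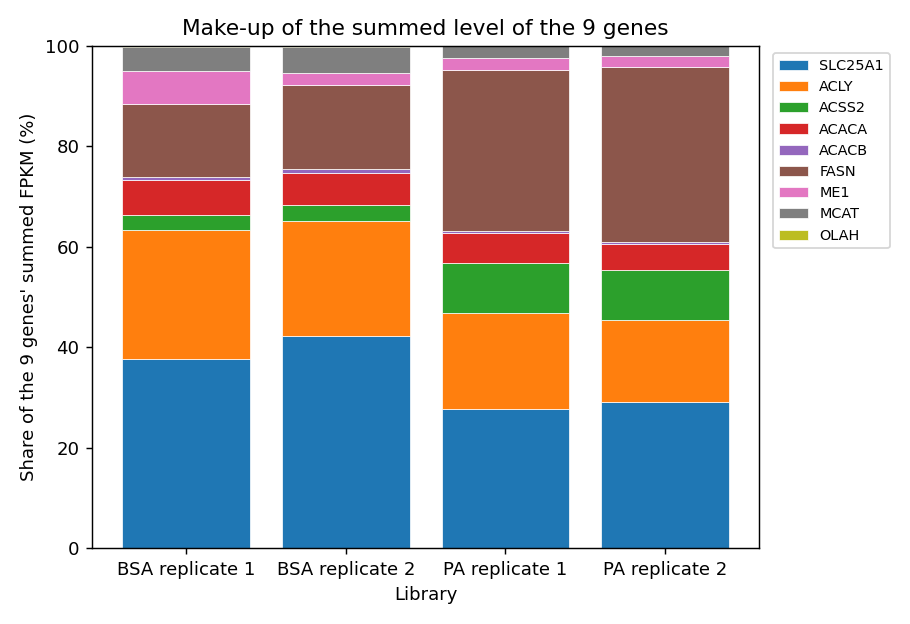
Share of each gene in the summed FPKM of the 9 genes, in percent, with 1 stacked bar per library. FASN takes 14.4% and 16.6% of the BSA bars and 32% and 34.8% of the PA bars, and SLC25A1 takes 37.7% and 42.2% against 27.7% and 29.2%.

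For the whole table, edgeR's quasi-likelihood test called 0 of 17449 genes at an adjusted p under 0.05 (4241 had an unadjusted p under 0.05), with a smallest adjusted p of 0.0544. Accordingly 0 of the 9 members passed, against 0% of all genes. At an unadjusted p under 0.05, 3 members (ACSS2, FASN and ACACA) were higher in PA and 0 were lower, where 13.1% of all genes were higher and 11.2% lower by that rule. In CPM, 5 members (SLC25A1, ACLY, ACSS2, ACACA and FASN) were higher in both PA libraries than in either BSA library, and 1 (MCAT) was lower. By the same rule 28.9% of all tested genes were higher and 29.1% lower, 58% in all. The median log2 fold change of the members was 0.45, beside -0.12 over all genes tested. For a single gene, the smallest two-sided p of an exact permutation test is 0.333 with 2 libraries a group.

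ACSS2, the acetate-using acetyl-CoA synthetase (ENSG00000131069, hg38 chromosome 20, 34872146 to 34927962, plus strand), differed most among the members. Its normalised level was 30.93 and 32.3 CPM in BSA replicates 1 and 2, and 174.1 and 202.4 CPM in PA replicates 1 and 2. The BSA libraries lay close together and far below both PA libraries. The log2 fold change was 2.57 ± 0.22 (SE), place 188 of the 17449 tested genes counted from the largest increase. By p it held place 10, yet its edgeR adjusted p of 0.0589 missed the threshold. Against each BSA library alone the mean of the PA libraries was higher by nearly the same amount, 2.60 log2 units for replicate 1 and 2.54 for replicate 2. ACSS2 passed in 7 of 15 alternatives. Among them were DESeq2 (adjusted p = 2.4e-10), which called 6.06% of genes higher, and a fit with the trend over GC content and length removed (log2 fold change 2.38, edgeR adjusted p = 0.0165), which called 5.51% higher. Relative to ACLY, the other cytosolic source of acetyl-CoA, ACSS2 stood closer in PA. The FPKM ratio of ACLY to ACSS2 was 8.3 and 6.97 in BSA, against 1.95 and 1.64 in PA.

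The windows before the annotated starts are shown for ACSS2, for the citrate genes SLC25A1 and ACLY, and for ACACB as a member whose groups overlapped. They are from RefSeq on GRCh38.p14, each the 250 bases before a start, written 5′ to 3′ on the strand of the gene. Capitals mark CCAAT (the NF-Y box) and GGGCGG (the GC box) on either strand. The counts are per gene and do not show which start was in use.
ACSS2 start 1, chr20:34874739-34874988 plus strand: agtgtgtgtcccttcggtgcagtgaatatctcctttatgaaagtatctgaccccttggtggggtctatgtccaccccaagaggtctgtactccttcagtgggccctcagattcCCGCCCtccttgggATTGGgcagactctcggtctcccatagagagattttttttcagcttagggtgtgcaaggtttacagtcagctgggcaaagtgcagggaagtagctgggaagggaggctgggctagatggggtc
ACSS2 start 2, chr20:34876362-34876611 plus strand: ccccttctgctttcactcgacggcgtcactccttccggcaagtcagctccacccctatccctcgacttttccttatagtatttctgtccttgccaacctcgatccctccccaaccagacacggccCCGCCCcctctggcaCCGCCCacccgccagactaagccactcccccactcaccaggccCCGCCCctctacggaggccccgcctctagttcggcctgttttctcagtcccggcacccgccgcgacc
SLC25A1, chr22:19178737-19178986 minus strand: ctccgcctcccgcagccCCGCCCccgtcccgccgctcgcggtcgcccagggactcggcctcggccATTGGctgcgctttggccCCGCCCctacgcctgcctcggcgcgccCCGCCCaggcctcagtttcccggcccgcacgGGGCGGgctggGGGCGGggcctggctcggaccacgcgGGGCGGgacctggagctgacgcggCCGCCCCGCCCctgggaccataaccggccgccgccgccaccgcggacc
ACLY start 1, chr17:41919023-41919272 minus strand: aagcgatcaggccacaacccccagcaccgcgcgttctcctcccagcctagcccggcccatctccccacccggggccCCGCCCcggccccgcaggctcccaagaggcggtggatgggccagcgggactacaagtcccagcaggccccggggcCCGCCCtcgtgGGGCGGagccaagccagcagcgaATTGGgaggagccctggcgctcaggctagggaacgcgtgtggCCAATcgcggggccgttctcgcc
ACACB start 2, chr12:109154429-109154678 plus strand: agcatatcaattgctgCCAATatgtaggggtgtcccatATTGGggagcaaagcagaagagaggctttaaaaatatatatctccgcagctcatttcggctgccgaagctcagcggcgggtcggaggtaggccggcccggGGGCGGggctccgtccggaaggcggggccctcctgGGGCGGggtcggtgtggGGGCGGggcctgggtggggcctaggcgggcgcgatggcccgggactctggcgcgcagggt

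The table held 13 such windows for 7 of the members, and FASN and OLAH were not among them, so the motif counts do not cover these 2 genes. The windows are not all separate stretches: the 2 windows of MCAT and the 2 of ACLY overlap, so matches there count more than once. A sterol regulatory element of the form TCACNCCAC was searched on both strands and was found in 0 of the 13, beside 0.883% of all 35116 windows of that length. The E-box CACGTG was also found in 0 of the 13, beside 6.34% of all windows. CCAAT was in 7 of the 13 windows, from 5 genes (32% of all windows), and GGGCGG in 11, from 7 genes (42.6%). The GC content of the 13 windows ran from 43.6% to 81.6%. The shares over all windows were not matched for GC content, so they do not show an excess of GGGCGG. Matches to GGGCGG that overlap one another were counted separately, and no base lay in matches of different motifs. SLC25A1 had 8 GGGCGG matches in its window, while ACSS2 had 1 before its first start and 3 before its second. ACACB had 3 GGGCGG and 2 CCAAT matches before its second start, and 0 of either before its first (chr12:109116337-109116586, not printed).

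FASN, the synthase itself (ENSG00000169710, hg38 chromosome 17, 82078338 to 82098294, minus strand), was the next largest. It stood at 257.1 and 289.2 CPM in BSA and at 1004 and 1258 CPM in PA. Both PA libraries lay far above both BSA libraries, and the PA libraries differed from each other by 0.33 log2 units. The log2 fold change was 2.05 ± 0.25 (SE), place 416 of the tested genes, with an edgeR adjusted p of 0.0589. By p FASN held place 126, so its equal adjusted p does not put it level with ACSS2. In all, 134 genes had an adjusted p no larger than that of ACSS2. The difference of FASN was 2.13 against BSA replicate 1 alone and 1.96 against BSA replicate 2. Its GC content is high, at 65.3% of the longest transcript, and the log2 fold change was 1.66 once the trend over GC content and length was removed (edgeR adjusted p = 0.0212). FASN passed in the same 7 of 15 alternatives as ACSS2. Besides the 2 already given and the fits without 1 BSA library, these were the fit with no filter on low counts (3.06% of genes called higher), the replicate block (2.3%) and the block with the trend removed (5.43%). In limma-voom and in limma on log2 FPKM, which called 0.00573% of genes higher, 0 members passed. The ratio of FASN to ACACA, the enzyme before it, was 2.11 and 2.66 in BSA and 5.34 and 6.73 in PA in FPKM.

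The genes of citrate use had smaller differences. SLC25A1 (ENSG00000100075, chromosome 22, 19175581 to 19178739, minus strand) stood at 143.8 and 157.8 CPM in BSA and at 186.2 and 227 CPM in PA. The groups did not overlap, but the PA libraries were further apart than the lower of them was from the higher BSA library. Its log2 fold change of 0.45 ± 0.21 (SE) did not pass (edgeR adjusted p = 0.259). ACLY (ENSG00000131473, chromosome 17, 41866917 to 41930542, minus strand) stood at 254.7 and 223.6 CPM in BSA and at 336.3 and 329.1 CPM in PA. Here the PA libraries were close together and above both BSA libraries, with a log2 fold change of 0.48 ± 0.20 (SE) that did not pass (edgeR adjusted p = 0.231). That value came down to 0.22 with the GC and length trend removed.

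Of the carboxylase genes, ACACA had groups that did not overlap and ACACB had groups that did. ACACA (ENSG00000278540, chromosome 17, 37084992 to 37406836, minus strand) stood at 170.5 and 151.9 CPM in BSA and at 262.6 and 261.2 CPM in PA. The PA libraries were nearly equal and lay above both BSA libraries, and the log2 fold change was 0.70 ± 0.20 (SE; edgeR adjusted p = 0.136). Genes overlapping ACACA and ACSS2 on the opposite strand had at most 11 counts in any library. ACACB (ENSG00000076555, chromosome 12, 109116587 to 109268226, plus strand) stood at 19.98 and 25.78 CPM in BSA and at 21.97 and 22.92 CPM in PA, between the BSA libraries. Its log2 fold change was -0.03 ± 0.29 (SE; edgeR adjusted p = 0.961), negative in the 4-library fit and 0.18 without BSA replicate 2. The span of ACACB overlaps those of UNG and of the lncRNA ENSG00000256139 on the same strand. UNG had 3771 and 6430 counts in BSA, against 1730 and 1385 in PA. The lncRNA went the other way, with 19 and 22 counts in BSA, against 53 and 43 in PA. Reads in a shared stretch may be assigned to any of the genes there. The FPKM ratio of ACACA to ACACB was 9.51 and 6.57 in BSA, against 13.3 and 12.7 in PA. How the carboxylase genes differ in fold change was not tested.

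ME1, which forms NADPH while turning malate into pyruvate (ENSG00000065833, chromosome 6, 83210402 to 83431051, minus strand), depended on the BSA library it was set against. It stood at 42.58 and 15.77 CPM in BSA and at 26.1 and 27.71 CPM in PA, so that both PA libraries fell between the BSA libraries. The log2 fold change was -0.12 ± 0.51 (SE; edgeR adjusted p = 0.902). It was 0.79 without BSA replicate 1 (edgeR adjusted p = 1.6e-05) and -0.65 without BSA replicate 2 (edgeR adjusted p = 4.1e-05), which are calls in opposite directions. The longest transcript of ME1 has 39.5% GC. The tested genes of similar GC content, 38.9% to 41.5%, had a median log2 ratio of BSA replicate 2 to replicate 1 of -0.98, and ME1 had -1.43. For those genes the PA mean had a median difference of -0.85 log2 units from BSA replicate 1 and 0.08 from BSA replicate 2. With the GC and length trend removed the log2 fold change of ME1 was 0.52 (edgeR adjusted p = 0.168). The remaining members had a difference between the BSA libraries of 0.06 to 0.37 log2 units in size.

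**Figure D3:**
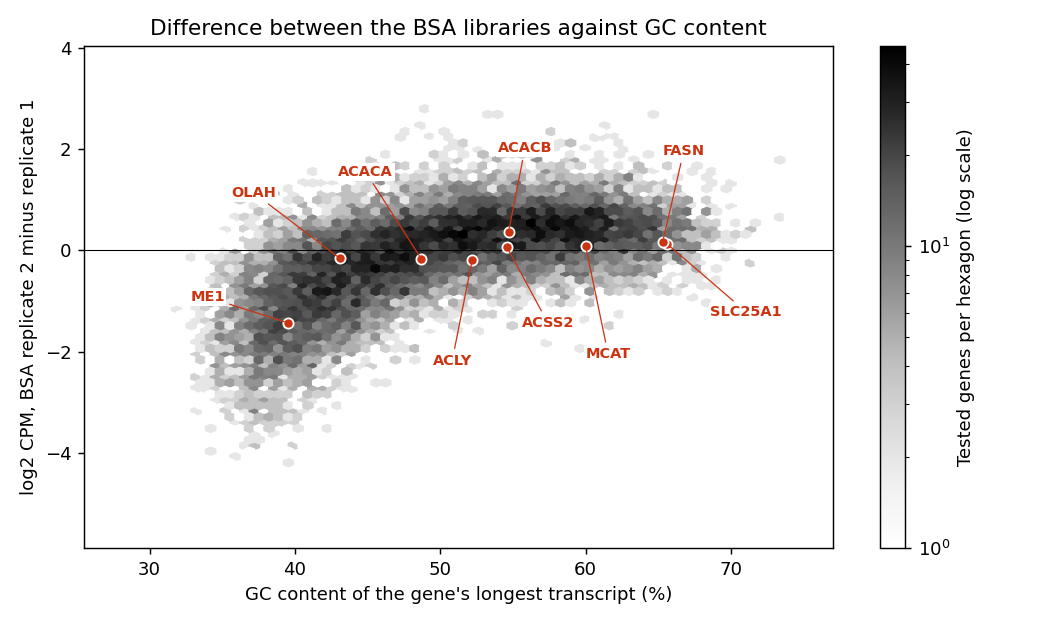
Log2 CPM of BSA replicate 2 minus BSA replicate 1 against the GC content (%) of each gene's longest transcript, with grey hexagons shaded by the number of tested genes and red points for the 9 genes. ME1, at 39.5% GC and -1.43, lies in the low-GC region where genes were higher in BSA replicate 1 than in BSA replicate 2. The other 8 genes lie between -0.19 and 0.37.

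**Figure D4:**
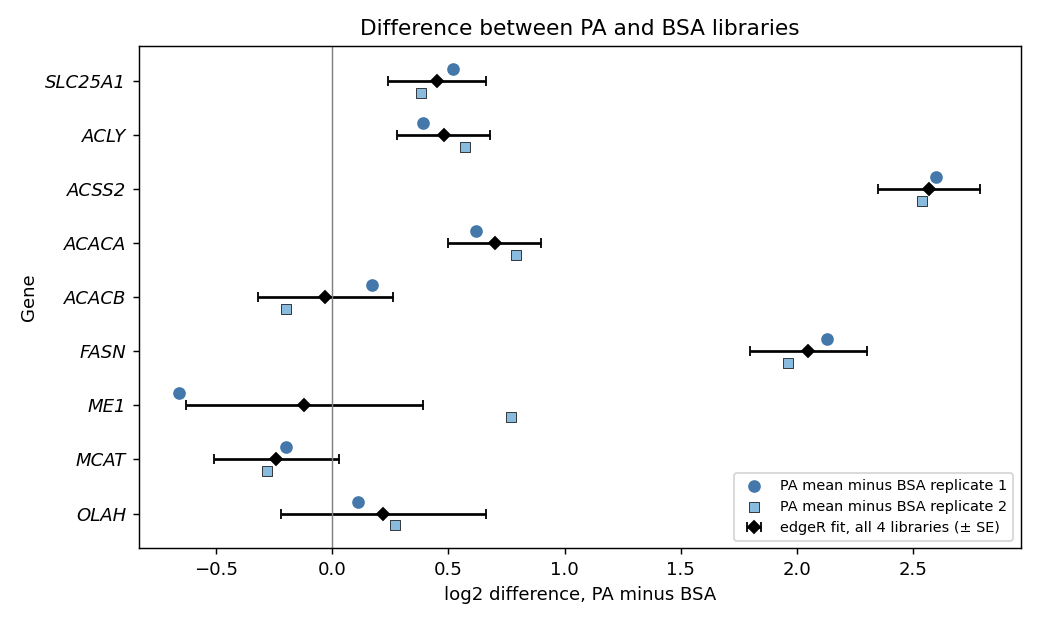
Log2 difference between PA and BSA for each gene, as the edgeR fit on all 4 libraries with its SE (diamonds) and as the mean of the PA libraries minus BSA replicate 1 (circles) or replicate 2 (squares). For ACSS2 and FASN the 3 values nearly coincide, and for ME1 they run from -0.66 to 0.77.

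MCAT and OLAH, which lie outside cytosolic palmitate synthesis, had values that did not pass. MCAT (ENSG00000100294, chromosome 22, 43132209 to 43143398, minus strand) stood at 21.89 and 23.21 CPM in BSA and at 19.74 and 18.48 CPM in PA. Both PA libraries were below both BSA libraries by a small margin, and the log2 fold change of -0.24 ± 0.27 (SE) did not pass (edgeR adjusted p = 0.6). OLAH (ENSG00000152463, chromosome 10, 15032227 to 15073853, plus strand) had 18 and 17 counts in the BSA libraries and 17 in each PA library. At that depth a difference was not detectable (log2 fold change 0.22 ± 0.44 SE; edgeR adjusted p = 0.78). The FPKM ratio of FASN to MCAT was 3.01 and 3.19 in BSA and 13 and 17.4 in PA. It sets a single cytosolic gene against a single mitochondrial gene, and most of its change lies in FASN.

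When a BSA library was left out, 6 members passed either way. In those fits only the PA libraries give a spread, and the lone BSA library is assumed to vary like them. Without BSA replicate 1 the members SLC25A1, ACLY, ACSS2, ACACA, FASN and ME1 were called higher and 0 lower, where 25.3% of all genes were called higher and 22.6% lower. Without BSA replicate 2 the first 5 of these were called higher and ME1 lower, where 27.3% of all genes were called higher and 30% lower. Without PA replicate 1 or PA replicate 2, 0 members passed, beside 0.0864% and 0.0481% of all genes.

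Among regulators of the pathway, the SREBP genes SREBF1 and SREBF2 had the smallest p-values and stood higher in PA. Of 21 listed regulators, cofactor enzymes and genes of malonyl-CoA turnover, 20 were tested and 0 passed. At an unadjusted p under 0.05, 5 were higher and 1 lower, beside 13.1% and 11.2% of all genes. The list median was -0.08, beside -0.12 over all genes. SREBF1, which encodes the SREBP form best known for fatty acid genes, stood at 106.6 and 129.5 CPM in BSA and at 339.5 and 401 CPM in PA (log2 fold change 1.65 ± 0.23 SE; edgeR adjusted p = 0.0654). SREBF2, the form best known for cholesterol genes, stood at 98.27 and 140.1 CPM in BSA and at 391 and 426 CPM in PA (1.78 ± 0.26 SE; edgeR adjusted p = 0.0689). For both genes the PA libraries lay well above both BSA libraries. SCAP, which escorts SREBP to the Golgi, had a log2 fold change of 1.10 ± 0.20 (SE; edgeR adjusted p = 0.0788), and MLXIPL, the glucose-responsive factor ChREBP, of 1.47 ± 0.28 (SE; edgeR adjusted p = 0.0855). All 4 were called higher by DESeq2 and after removal of the GC and length trend, where SCAP passed narrowly (log2 fold change 0.80, edgeR adjusted p = 0.0494). With the replicate block SCAP (edgeR adjusted p = 0.0824) and MLXIPL (0.0551) did not pass, and with block and trend together SCAP did not (0.0632).

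Other sources of acetyl-CoA and NADPH held genes with higher and genes with lower PA levels. Of 20 genes of citrate formation and other acetyl-CoA sources 19 were tested and 0 passed. At an unadjusted p under 0.05, 4 were higher and 1 lower, beside 13.1% and 11.2% of all genes. The median log2 fold change was 0.02, beside -0.12 over all genes. ACO1, the cytosolic aconitase, stood at 43.41 and 38.76 CPM in BSA and at 89.2 and 96.6 CPM in PA (1.18 ± 0.22 SE; edgeR adjusted p = 0.0812). Its groups were well apart. ACAT2, the cytosolic thiolase that uses acetyl-CoA for sterols, had a log2 fold change of 0.91 ± 0.29 (SE), and PDHX, a part of the pyruvate dehydrogenase complex, of 0.58 ± 0.21 (SE). Of 14 other genes of NADPH-supplying pathways 13 were tested and 0 passed, with a median of -0.35. At an unadjusted p under 0.05, 1 was higher and 1 lower, near the shares of 13.1% and 11.2% over all genes. MTHFD2, of mitochondrial folate metabolism, stood at 290 and 458 CPM in BSA and at 188.2 and 184.1 CPM in PA (-1.01 ± 0.29 SE; edgeR adjusted p = 0.139), and the log2 fold change was -0.63 without BSA replicate 2. NNT, the mitochondrial transhydrogenase, had a log2 fold change of 0.68 ± 0.22 (SE), and 1.03 with the trend removed. With block and trend together it was 1.08 and passed (edgeR adjusted p = 0.0384). PGLS, the lactonase of the pentose phosphate pathway, stood at 72.6 and 135.8 CPM in BSA and at 61.18 and 60.33 CPM in PA. Its log2 fold change of -0.78 ± 0.35 (SE) was -0.25 without BSA replicate 2 and -1.14 without BSA replicate 1. IDH2, the mitochondrial isocitrate dehydrogenase that forms NADPH, had -0.58 ± 0.27 (SE).

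The mitochondrial fatty acid synthesis list, to which MCAT belongs by function, had a median below that of all genes. Of 10 listed genes besides MCAT 9 were tested and 0 passed. At an unadjusted p under 0.05, 0 were higher and 3 lower, beside 13.1% and 11.2% of all genes. Their median log2 fold change was -0.56, and 8 of the 9 values were below 0. The median over all genes was also below 0, at -0.12. LIPT2, a lipoyl transferase, had 61 and 68 counts in BSA, against 17 and 9 in PA (-2.08 ± 0.42 SE; edgeR adjusted p = 0.087). LIAS, lipoic acid synthase, stood at 11.41 and 5.896 CPM in BSA and at 3.164 and 3.392 CPM in PA, and its log2 fold change of -1.40 became -0.83 without BSA replicate 1. CBR4, a subunit of the mitochondrial ketoacyl reductase, had -1.42 with all libraries and -0.88 without BSA replicate 1. LIPT1, another lipoyl transferase, had -1.11 ± 0.46 (SE), and -0.51 as the PA mean against BSA replicate 2 alone. With the GC and length trend removed the list median was -0.59, beside -0.03 for all genes, but LIAS came to -0.93, CBR4 to -0.69 and LIPT1 to -0.59.

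**Figure D5:**
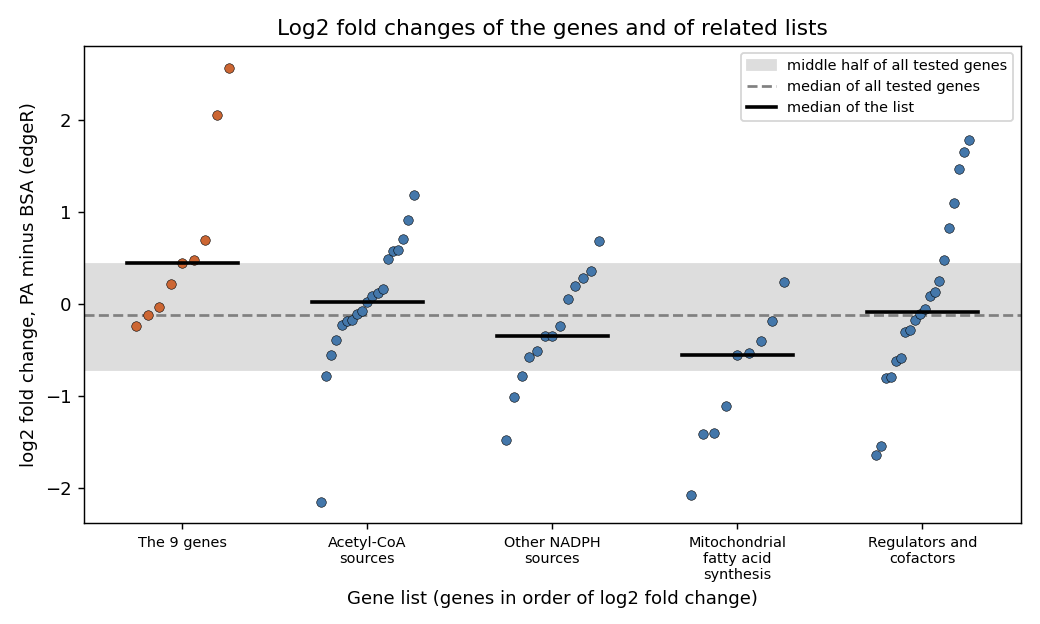
Log2 fold change (PA minus BSA, edgeR) of each tested gene in the 9-gene set and in 4 related lists, with a black line for each list's median and a grey band from the lower to the upper quartile of all tested genes. The medians are 0.45 for the 9 genes, 0.02 and -0.35 for acetyl-CoA and NADPH sources, -0.56 for mitochondrial synthesis and -0.08 for regulators, beside -0.12 for all genes.

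The genes most like FASN and ACSS2 over the 4 libraries were found by the root mean square difference of centred log2 CPM among 9923 genes with a mean of at least 10 CPM. For FASN the nearest 5 were PDIA6, SEMA6B, TBC1D10A, STX11 and IFFO2, at 0.0457 to 0.0929 log2 units. PDIA6 encodes a disulfide isomerase of the endoplasmic reticulum, SEMA6B a semaphorin and STX11 a syntaxin. For ACSS2 they were the gene with the identifier ENSG00000273759, an lncRNA to which the table gives no symbol, then TINAGL1, MFGE8, CNTNAP1 and COL6A2, at 0.0372 to 0.0779. MFGE8 encodes a secreted milk-fat-globule protein and COL6A2 a chain of collagen VI. FASN and ACSS2 were 0.268 log2 units from each other, and 0 members were among the nearest 5 of either. Since the 4 libraries form 2 groups, such likeness is mostly a like size of difference between the groups.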

How the data were processed

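RNA sequencing gave 4 libraries of TOV-112D cells, 2 labelled BSA and 2 labelled PA, grouped by title. The submitters' processing notes name hg38, HISAT2, StringTie and SAMtools. Tool versions, annotation release, counting settings and strand use: not given in the sources used here. Per the file headers, the authors deposited for each gene a read count and an FPKM value. Totals of 23722074 to 31695944 counts leave genes near 1 CPM with the largest counting error.

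The count test was that of edgeR 4.0.16 under R 4.3.3 (filterByExpr, TMM, quasi-likelihood F test, Benjamini-Hochberg adjustment over all 17449 tested genes at 0.05, no replicate block). SE is the size of the log2 fold change over the square root of F. The procedure was tested on simulated data. The log2 CPM behind ratios between libraries used a prior count of 2. As 15 alternatives, DESeq2 1.42.0, limma-voom 3.58.1, scaling by RLE or by upper quartile, dropping the low-count filter, keeping genes of 1 CPM in 2 libraries, limma on log2(FPKM + 1) and log2(FPKM + 0.1), a replicate block, removal of a loess trend (span 0.3) on GC content and log2 length (from the longest transcript per gene in GENCODE 29, 16596 genes, 95.1%), block and trend together, and leaving out each library were run.

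The members and lists were chosen with earlier results of these data known. Named genes were all members, up to 4 of each list with the smallest p and groups that do not overlap, and the 5 genes most like FASN and ACSS2. Of the genes this rule names, 1 is not reported here. Other genes were named after their values were seen. If counting ignored strand, reads of overlapping genes on opposite strands cannot be separated. Figures were drawn with matplotlib 3.10.9.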

Additional observations from a re-analysis of the deposited data

How the results depend on the processing

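Without a filter 1302 genes, 2 members and 6 genes of the 4 related lists passed, with DESeq2 1770, 2 and 6, with the replicate block 537, 2 and 2, after removal of the GC and length trend 1350, 2 and 5, and for block and trend together 1352, 2 and 5, against 0, 0 and 0 in the 4-library edgeR fit. In each of these the 2 members were ACSS2 and FASN. The share of all tested genes called higher was 3.06%, 6.06%, 2.3%, 5.51% and 5.43% in these settings, in the order given. The list counts were not tested against such shares, so they do not set the lists apart from all genes. limma-voom and limma on log2(FPKM + 1) and on log2(FPKM + 0.1) passed 1 gene and 0 members. Leaving out 1 library gave 9 to 10467 genes, 0 to 6 members and 0 to 38 list genes, the highest counts without a BSA library. RLE factors, upper-quartile factors and the 1 CPM filter passed 0 genes, and that filter dropped OLAH. ACSS2 ranged from 2.32 to 2.71 and FASN from 1.66 to 2.24 over the 15 alternatives. ACACB turned to 0.18 without BSA replicate 2 and 0.04 without PA replicate 1, with -0.18 without BSA replicate 1. ME1 turned to 0.06 with limma-voom, 0.05 with the replicate block, 0.52 with the trend removed, 0.53 with block and trend, and 0.79 without BSA replicate 1, with -0.65 without BSA replicate 2. The cause was not tested. The labels do not say what the replicate numbers stand for, so the numbers are not treated as pairs. Deviations of same-numbered libraries were not correlated (r = 0.00844 across 17449 genes). Since the BSA difference followed GC content, this r cannot show a small effect shared by number. The higher count under the block does not show pairing either. Depth limits OLAH, with 17 or 18 counts per library.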

Other observations

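Some low-GC genes of the related lists stood apart in BSA replicate 1 alone, chosen here after their values were seen. DLD, the shared dihydrolipoamide dehydrogenase (39.3% GC), had 2366 counts in BSA replicate 1 and 194 to 322 in the other 3 libraries. AASDHPPT, which attaches the phosphopantetheine arm that fatty acid synthase needs, has 33.9% GC and had 1293 counts there and 189 to 248 elsewhere. ME2, the mitochondrial malic enzyme (40.6% GC), had 1258 counts there and 191 to 286 elsewhere. For AASDHPPT the mean of the PA libraries was -2.39 log2 units from BSA replicate 1 and 0.07 from BSA replicate 2.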
